A study of Mus musculus with 23 samples.

Results

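The microRNAs described here are miR-10a-5p, miR-10b-5p, miR-196a-5p and miR-196b-5p, which are encoded inside the Hox gene clusters of the mouse. They were chosen by their identifiers (MIMAT0000648, MIMAT0000208, MIMAT0000518 and MIMAT0001081), and all 4 were present among the 602 microRNA probes of the panel. All 4 were also among the 302 microRNAs that were above background in at least 2 samples and were therefore tested. Expression was measured on a NanoString nCounter mouse microRNA panel, which counts probe barcodes without amplification. The 23 samples were cells sorted from lungs of wild-type (WT) C57BL6 mice with no further treatment named. By their labels, 13 samples were type II pneumocytes (AT2, sorted on CD326), the cells that make surfactant. The other 10 were endothelial cells (EC, sorted on CD31), which line the blood vessels. Lungs were taken before birth on embryonic day 16.5 (E16.5) or 18.5 (E18.5), or after it on postnatal day 1 (P1), 7 (P7), 14 (P14) or 28 (P28). AT2 had 2 samples per stage and 3 at P28, and EC had 2 per stage and 1 each at E18.5 and P1.

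Hox genes encode transcription factors that specify position along the body axis, and they lie in the genome in the order in which they are used along that axis. The microRNAs between them are transcribed from the same regions. A microRNA guides a silencing complex to messenger RNAs that pair with its seed, the short stretch near its 5′ end. The best known target of miR-196 is Hoxb8, whose messenger RNA it directs to be cut in the mouse, and miR-10 is known in zebrafish for its role in the growth of blood vessels.

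The mature sequences show why the 4 probes fall into a pair of families. They are given 5′ to 3′ as in RefSeq (GRCm38.p6), with the seed (bases 2 to 8) in capitals.
miR-10a-5p: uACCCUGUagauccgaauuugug
miR-10b-5p: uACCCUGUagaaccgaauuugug
miR-196a-5p: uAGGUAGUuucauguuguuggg
miR-196b-5p: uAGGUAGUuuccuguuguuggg
miR-10a-5p and miR-10b-5p are 23 bases long, share the seed ACCCUGU and differ at 1 base, U12A, counted from 1 at the 5′ end with the miR-10a base first. miR-196a-5p and miR-196b-5p are 22 bases long, share the seed AGGUAGU and differ at 1 base, A12C, with the miR-196a base first. Each seed is carried by 2 of the 1679 mature mouse microRNAs in the sequence table, the 2 members of its own family. The probes of a family therefore target RNAs that differ at a single internal base. How far each probe also counts the other member was not tested.

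The 4 mature microRNAs come from 5 hairpins in 4 Hox clusters (GRCm38.p6 coordinates). The Mir10a hairpin lies at chr11:96317165-96317274 on the forward strand, within the annotated span of Hoxb3 and 992 bases from Hoxb4. The Mir10b hairpin lies at chr2:74726070-74726137 on the forward strand, within the overlapping spans of Hoxd3 and Hoxd4. miR-196a-5p is produced from Mir196a-1 (chr11:96265164-96265265, forward strand) between Hoxb13 and Hoxb9, and from Mir196a-2 (chr15:102973350-102973434, forward strand) between Hoxc10 and Hoxc9. Both hairpins give the same mature sequence, so the probe cannot tell their products apart. The Mir196b hairpin lies at chr6:52230081-52230165 on the reverse strand, between Hoxa9 and Hoxa10 and 1031 bases from Hoxa10. Mir10a and Mir196a-1 thus belong to the same cluster on chromosome 11.

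**Figure D1:**
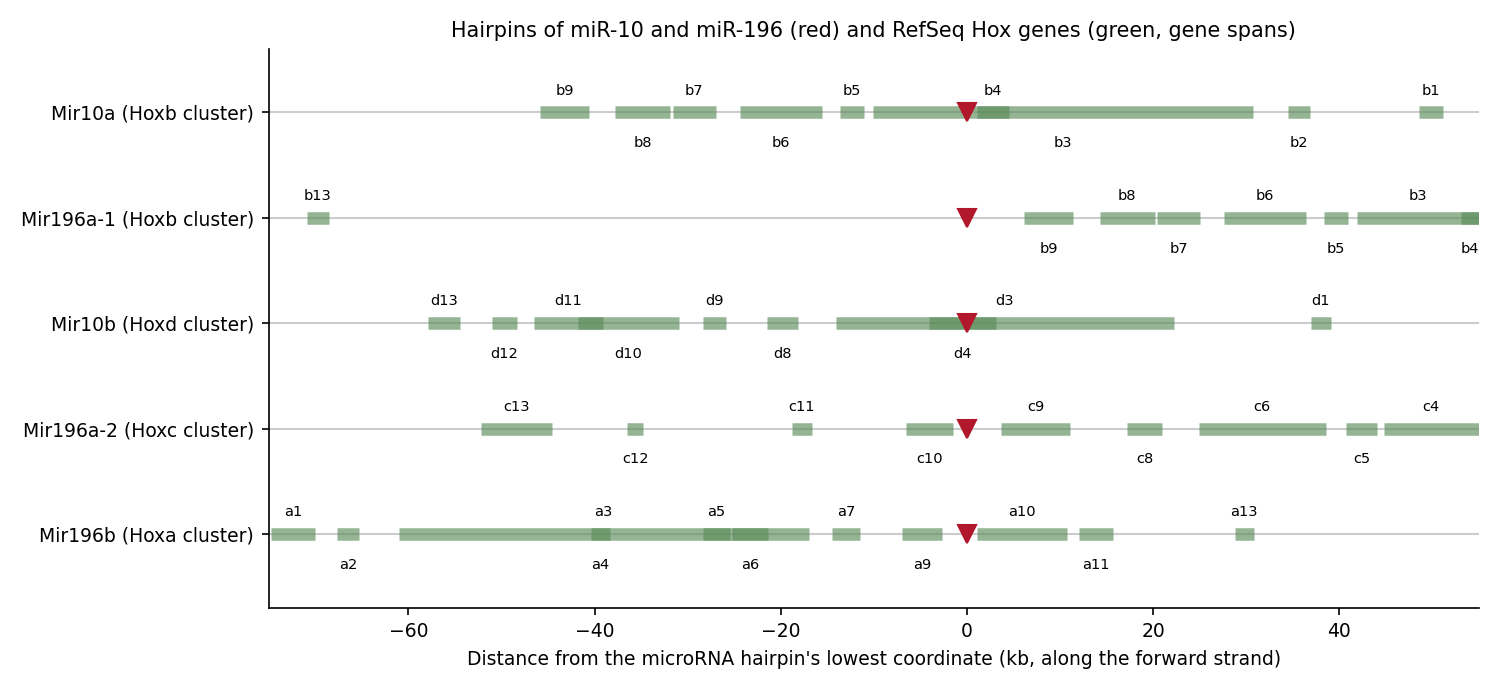
Positions of the 5 hairpins (red triangles) and of the RefSeq Hox genes around them (green bars, labelled by cluster letter and number), as distance in kb from each hairpin. Mir10a lies within the span of Hoxb3, Mir10b within those of Hoxd3 and Hoxd4, and the miR-196 hairpins lie between genes, beside Hoxb9, Hoxc9 and Hoxa9.

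The recovered counts over all microRNAs were 26640 to 559365 in AT2 samples and 36373 to 571706 in EC samples. The deposited values are these counts times 1 factor per sample, here called scaled values. A value was called above background where its count exceeded the mean plus 2 SD of the 8 low ERCC control rows of the same sample. That limit was 6.16 to 57.2 scaled units in AT2 samples and 14.4 to 95.1 in EC samples, so a given low value can be above background in one sample and not in another. In AT2 P28 replicate 1 the 8 low control rows were all at 1 count, which leaves that sample with a limit of 1 count. The 1 EC sample set apart from the rest in these data was EC P14 replicate 2. In it MIMAT0000138, the highest microRNA of all 10 EC samples, took 23.4% of the counts, against 31.9 to 44.9% in the other 9. This sample and 2 others that earlier results of these data had set apart (EC P1 replicate 1 and EC P28 replicate 2, whose MIMAT0000138 shares lay within the range of the rest) were left out together in an alternative fit. The lists of cell type markers (20 microRNA names) and of related Hox cluster and miR-10-like microRNAs (10 names) could not be matched, because the files and reference tables used here pair no identifier with a name. The labelled cell types were therefore not checked against named markers. Whether the cells sorted on CD326 were of the same kind at all stages was not tested, which also bears on the comparisons between stages.

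miR-10a-5p was the most abundant of the 4 in EC by scaled value, and it was far lower in AT2. In AT2 it had scaled values of 34.14 and 65.39 at E16.5, 55.7 and 59.47 at E18.5, and 19.7 and 8.74 at P1. The later AT2 values were 56.77 and 51.81 at P7, 24.02 and 43.64 at P14, and 52.04, 20.25 and 41.74 at P28. All 13 AT2 values were above background, with 65.39 as the highest. In EC the values were 650.32 and 593.87 at E16.5, 523.18 in the E18.5 sample and 317.9 in the P1 sample. The later EC values were 585.33 and 424.64 at P7, 737.09 and 220.47 at P14, and 1003.35 and 531.3 at P28. The lowest EC sample, P14 replicate 2, still lay above the highest AT2 sample, so the cell types did not overlap. How many of all tested microRNAs separated the cell types in this way was not counted. Values of different probes are on the same scale but depend on each probe's efficiency, so the order of the members is that of signals and not of molecules.

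miR-10b-5p was not above background in AT2, and it was in every EC sample. In the 13 AT2 samples the scaled values had a lowest of 3.25, a median of 7.43 and a highest of 29.73, and 0 of 13 passed the background limit of their sample. Some lay just under it, such as P1 replicate 2 (16 counts, limit 16.2) and P7 replicate 2 (17 counts, limit 18.8). The AT2 values are upper bounds for the microRNA, since background alone gives signals of that size. In EC it had scaled values of 122.13 and 135.98 at E16.5, 134.76 in the E18.5 sample and 179.24 in the P1 sample. The later EC values were 259.12 and 202.75 at P7, 119.42 and 86.9 at P14, and 196.81 and 110.99 at P28. All 10 EC values were above background, and all lay above the highest AT2 value, a separation whose share among all tested microRNAs was likewise not counted.

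miR-196a-5p also had its high values in EC, at a lower level than either miR-10 probe in most EC samples. In AT2 it had scaled values of 40.54 and 18.68 at E16.5, 31.83 and 34.69 at E18.5, and 17.38 and 9.54 at P1. The later AT2 values were 10.64 and 10.1 at P7, 8.85 and 13.06 at P14, and 7.43, 10.5 and 9.54 at P28. Above background were 8 of 13 AT2 samples, among them none of the 3 at P28. In EC the values were 293.1 and 88.8 at E16.5, 79.27 in the E18.5 sample and 64.6 in the P1 sample. The later EC values were 139.97 and 96.59 at P7, 119.42 and 38.62 at P14, and 92.62 and 87.35 at P28. The E18.5 sample was the 1 EC sample not above background, and the highest AT2 value (40.54) passed the lowest EC value (38.62), so the ranges overlapped slightly.

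miR-196b-5p, with the same seed as miR-196a-5p, had a different pattern and passed the background limit mainly in AT2 samples. In AT2 it had scaled values of 23.47 and 14.79 at E16.5, 22.73 and 27.26 at E18.5, and 23.17 and 17.09 at P1. The later AT2 values were 10.05 and 14.05 at P7, 74.59 and 22.56 at P14, and 133.82, 23.25 and 47.7 at P28. Of the 13 AT2 samples, 11 were above background, including all 7 from P7 onward. In EC the 10 values had a lowest of 20.82, a median of 27.2 and a highest of 45.8, and 2 of 10 were above their background limits, which were mostly higher in EC samples. The EC range lay inside the AT2 range. The highest value of all, in AT2 P28 replicate 1, rests on 18 counts in the sample with the fewest counts.

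**Figure D2:**
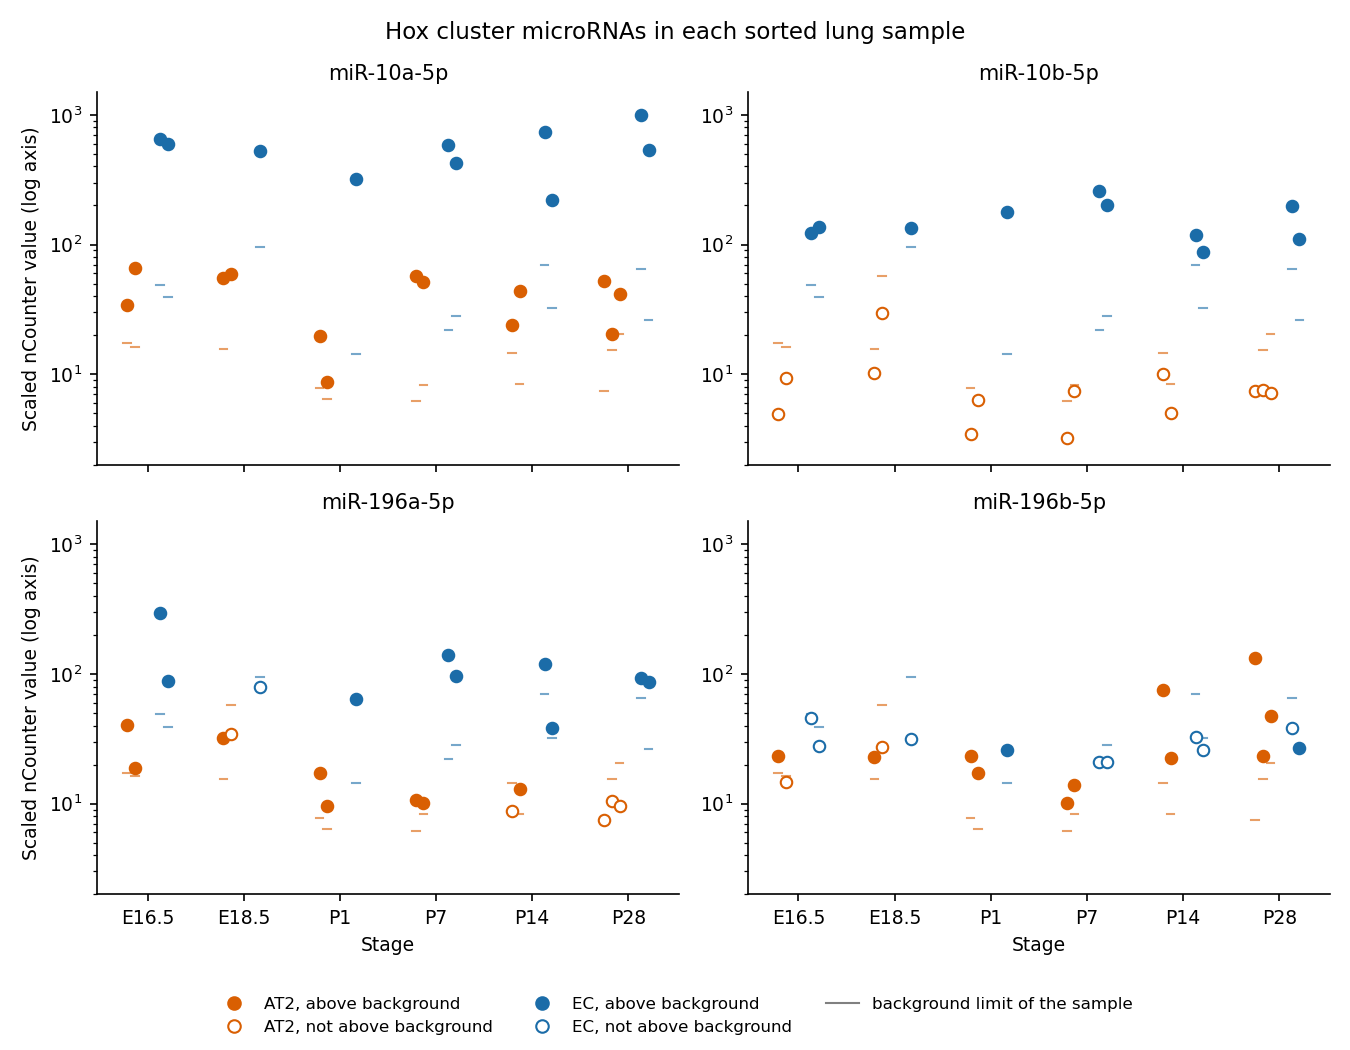
Scaled nCounter value (log axis) of each microRNA in every sample by stage, with AT2 (orange) left of EC (blue). Filled points are above the background limit of their sample, open points are not, and short bars mark that limit. The 10 EC points of miR-10a-5p and of miR-10b-5p lie above all 13 AT2 points, those of miR-196a-5p nearly so, and those of miR-196b-5p lie among them.

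The first comparison, averaged over the 6 stages, asked how AT2 differed from EC. miR-10a-5p, miR-10b-5p and miR-196a-5p were lower in AT2, and miR-196b-5p did not pass the test. This was 3 of 4 members past the threshold (adjusted p under 0.05), where 67.2% of all tested microRNAs passed and 47.7% passed as lower in AT2, so the count is close to that of the panel as a whole. For miR-10b-5p the difference of signals, AT2 minus EC, was -4.16 ± 0.23 on the log2(value + 1) scale (SE, limma, adjusted p = 2.37e-10). It sets EC against AT2 values that were all at background, so its size is not that of the microRNA; with values raised to a common floor, the highest background limit of any sample, it was -0.65. For miR-10a-5p the difference was -3.74 ± 0.25 (SE, limma, adjusted p = 1.73e-09), the third smallest p of the 302. For miR-196a-5p it was -2.51 ± 0.25 (SE, limma, adjusted p = 2.36e-07), and its p ranked 14. The median over all tested microRNAs was -0.43. For miR-196b-5p the difference was -0.20, with a 95% confidence interval of -0.79 to 0.40 (limma, adjusted p = 0.546). Since 8 of its 10 EC values were not above background, that interval bounds the difference of signals and not of the microRNA itself.

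As ratios of geometric means of the scaled values, miR-10a-5p averaged 36.0 in AT2 and 518 in EC, which is 14.4-fold higher in EC. With the AT2 samples set to their background limits, miR-10b-5p was 11.8-fold higher in EC. With the AT2 samples not above background set to their limits, miR-196a-5p was 5.73-fold higher in the 9 EC samples that were above background. Both folds belong to the deposited scaling, with background left in the EC values, and are not lower bounds under other scalings. Scaled to the microRNA total, the log2 difference AT2 minus EC was -3.41 for miR-10b-5p and -1.73 for miR-196a-5p. The same direction was seen within the 9 specimen IDs that an AT2 and an EC sample both carry. miR-10a-5p, miR-10b-5p and miR-196a-5p were lower in the AT2 sample of all 9 IDs, and miR-196b-5p in 6 of 9. The share of all tested microRNAs that were lower in all 9 IDs was not counted. For miR-10a-5p the EC sample was 8.20 to 19.3 times the AT2 sample of the same ID. As a share of all microRNA counts, which does not use the deposited scaling, miR-10a-5p took 0.00393 to 0.0435% in AT2 and 0.107 to 0.229% in EC. These are bulk samples of sorted cells, so fewer cells that carry a microRNA and less of it per cell cannot be told apart.

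The difference was then taken stage by stage. miR-10a-5p was lower in AT2 at all 6 stages, and the log2 difference was -3.69 (E16.5) and -3.16 (E18.5) before birth. After birth it was -4.49 (P1), -3.18 (P7), -3.60 (P14) and -4.33 (P28), with an adjusted p of 0.0215 or less at each stage (limma). miR-10b-5p was lower at all 6 stages as well, always against AT2 values at background (limma, adjusted p of 0.0215 or less at each). With the AT2 samples set to their background limits, miR-10b-5p was 7.66-fold higher in EC at E16.5, 4.51-fold at E18.5 and 25.3-fold at P1. After the first days of life it was 32.1-fold (P7), 9.25-fold (P14) and 11.1-fold (P28) higher. These folds move with the limits of the samples. They belong to the deposited scaling, with background left in the EC values, and are not lower bounds. The share of tested microRNAs past the threshold was 35.8% (E16.5) and 2.65% (E18.5), with 19.5% and 1.99% passing as lower in AT2. After birth it was 7.28% (P1), 44.0% (P7), 21.9% (P14) and 29.1% (P28), with 6.95%, 31.8%, 19.2% and 18.2% as lower. Both miR-10 members were thus among the 8 microRNAs called at E18.5 and the 22 called at P1, where EC had 1 sample each, which is assumed to vary like the other groups. At E18.5 the call of both was lost with scaling to the microRNA total (-2.33 for miR-10a-5p and -2.06 for miR-10b-5p) and without AT2 E18.5 replicate 1 (limma, adjusted p = 0.140 for miR-10a-5p and 0.220 for miR-10b-5p). The miR-10a-5p call was also lost at P7 with the microRNA total (-1.82, limma, adjusted p = 0.0583) and at P1 with the common floor (-1.73, limma, adjusted p = 0.0686). At the common floor the miR-10b-5p call was lost at E16.5 (-0.43), E18.5 (-0.50) and P14 (-0.16), with adjusted p of 0.162, 0.269 and 1 (limma).

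miR-196a-5p was lower in AT2 past the threshold at 4 of 6 stages. The differences were -2.51 at E16.5, -3.37 at P7, -2.55 at P14 and -3.17 at P28 (limma, adjusted p of 0.0113 or less). It had -1.23 at E18.5 (limma, adjusted p = 0.255) and -2.24 at P1 (limma, adjusted p = 0.0677, or 0.0330 with the specimen ID as a block). Whether these 2 stages differ from the other 4 was not tested. At P1 miR-196a-5p also passed, at the same -2.24, without any 1 of the EC samples of E16.5 or P14. The E16.5 call was lost without EC E16.5 replicate 1 (-1.65, limma, adjusted p = 0.0703). The P14 call was lost without EC P14 replicate 1 (-1.75, limma, adjusted p = 0.286) or AT2 P14 replicate 1 (-2.30, limma, adjusted p = 0.0689). Scaling to the microRNA total ended the calls at E16.5 (limma, adjusted p = 0.107) and P14 (0.0931), and background subtraction ended that at P14 (0.0646). The common floor ended all 4. That floor lies above every AT2 value of miR-196a-5p, and at P28 above its EC values too, so no difference could remain at P28. miR-196b-5p was past the threshold at 0 of 6 stages (limma), and at 0 of 6 with an unadjusted p under 0.05. Its differences were -0.90, -0.34, -0.37 and -0.76 from E16.5 to P7, and 0.49 at P14 and 0.71 at P28, with adjusted p from 0.267 to 0.830.

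**Figure D3:**
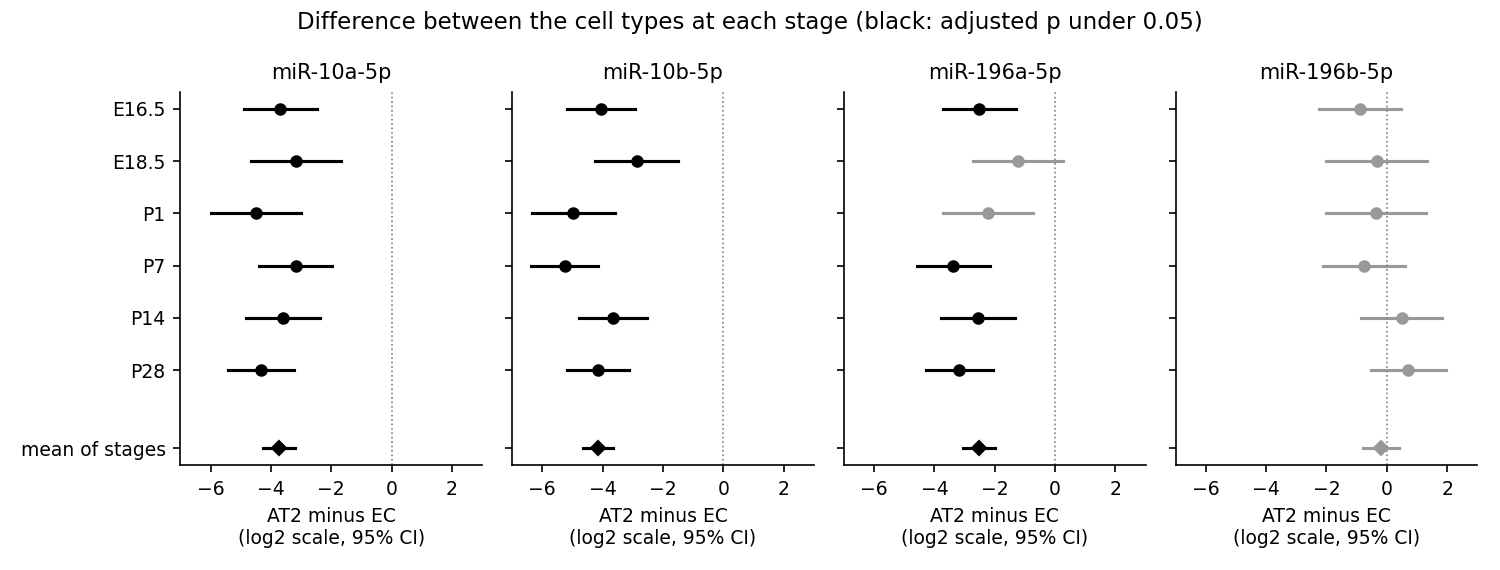
AT2 minus EC on the log2(value + 1) scale at each stage and as the mean of stages (diamond), with 95% confidence intervals, in black where the adjusted p was under 0.05. miR-10a-5p and miR-10b-5p lie between -5.26 and -2.87 at all 6 stages, with the AT2 values of miR-10b-5p at background, and the intervals of miR-196b-5p include 0 throughout.

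The next comparison set late stages (P7, P14, P28) against early stages (E16.5, E18.5) within AT2. miR-196a-5p was the 1 member of 4 that passed, and it was lower late, where 51.3% of all tested microRNAs passed and 40.1% passed as lower. Its scaled values were 7.43 to 13.06 in the 7 late AT2 samples, against 18.68 to 40.54 in the 4 early AT2 samples. The ranges did not overlap, and how many other tested microRNAs separated in the same way was not counted. The difference of miR-196a-5p was -1.50 ± 0.37 on the log2 scale (SE, limma, adjusted p = 0.00253), beside a median of -0.64 over all tested microRNAs. Only 3 of the 7 late samples were above background, against 3 of the 4 early ones. With the late samples not above background set to their limits, the late level was 2.31-fold lower than in the 3 early samples above background. That fold belongs to the deposited scaling, with background left in the early values, and is not a lower bound under other scalings. The call depended on the scaling. It held with scaling to the microRNA total (-1.67) and with background subtracted (-1.67), but with each sample shifted to a common median it was -0.62 (limma, adjusted p = 0.163), and with quantile normalization -0.60 (limma, adjusted p = 0.237). The common median moved the median over all tested microRNAs to 0.24, so that miR-196a-5p lay below the median of all microRNAs both as deposited and with the common median.

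The other members did not pass between late and early AT2. miR-10a-5p had a median of 43.64 late and 57.6 early, a difference of -0.39 ± 0.36 (SE, limma, adjusted p = 0.374). miR-10b-5p had -0.70 ± 0.34 (SE, limma, adjusted p = 0.0880), with 0 of 11 of those samples above background, so the test compared background signal. miR-196b-5p ran the other way, with values of 10.05 to 133.82 late, against 14.79 to 27.26 early. Its difference was 0.45 ± 0.41 (SE, limma, adjusted p = 0.354), and the late range enclosed the early one. All 7 late samples were above background and 2 of the 4 early ones were. Under the scalings that set the median of all microRNAs equal, miR-196b-5p passed as higher late: by 1.34 with the common median (limma, adjusted p = 0.00837) and by 1.25 with quantile normalization (limma, adjusted p = 0.0118). The direction was the same under all 10 alternatives run, and the size was 0.05 to 1.70.

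In EC, 0 of 4 members passed between late and early (limma), where 37.1% of tested microRNAs passed. At an unadjusted p under 0.05 the count was also 0. The differences were -0.11 for miR-10a-5p, 0.20 for miR-10b-5p, -0.34 for miR-196a-5p and -0.31 for miR-196b-5p, beside a median of -0.57 over all tested microRNAs. The 95% confidence interval for miR-10a-5p was -1.004 to 0.78, and for miR-10b-5p -0.63 to 1.02, so changes within those bounds could not be told from 0 with 6 late and 3 early EC samples. The test of the difference between the cell types in their late minus early change passed for 0 of 4 members (limma, against 6.29% of tested microRNAs; 0 of 4 at an unadjusted p under 0.05). Its values, AT2 minus EC, were -0.28 for miR-10a-5p, -0.90 for miR-10b-5p, -1.16 for miR-196a-5p and 0.76 for miR-196b-5p. The closest to the threshold was miR-196a-5p with an adjusted p of 0.317 (limma), so its fall in AT2 is not shown to differ from EC.

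**Figure D4:**
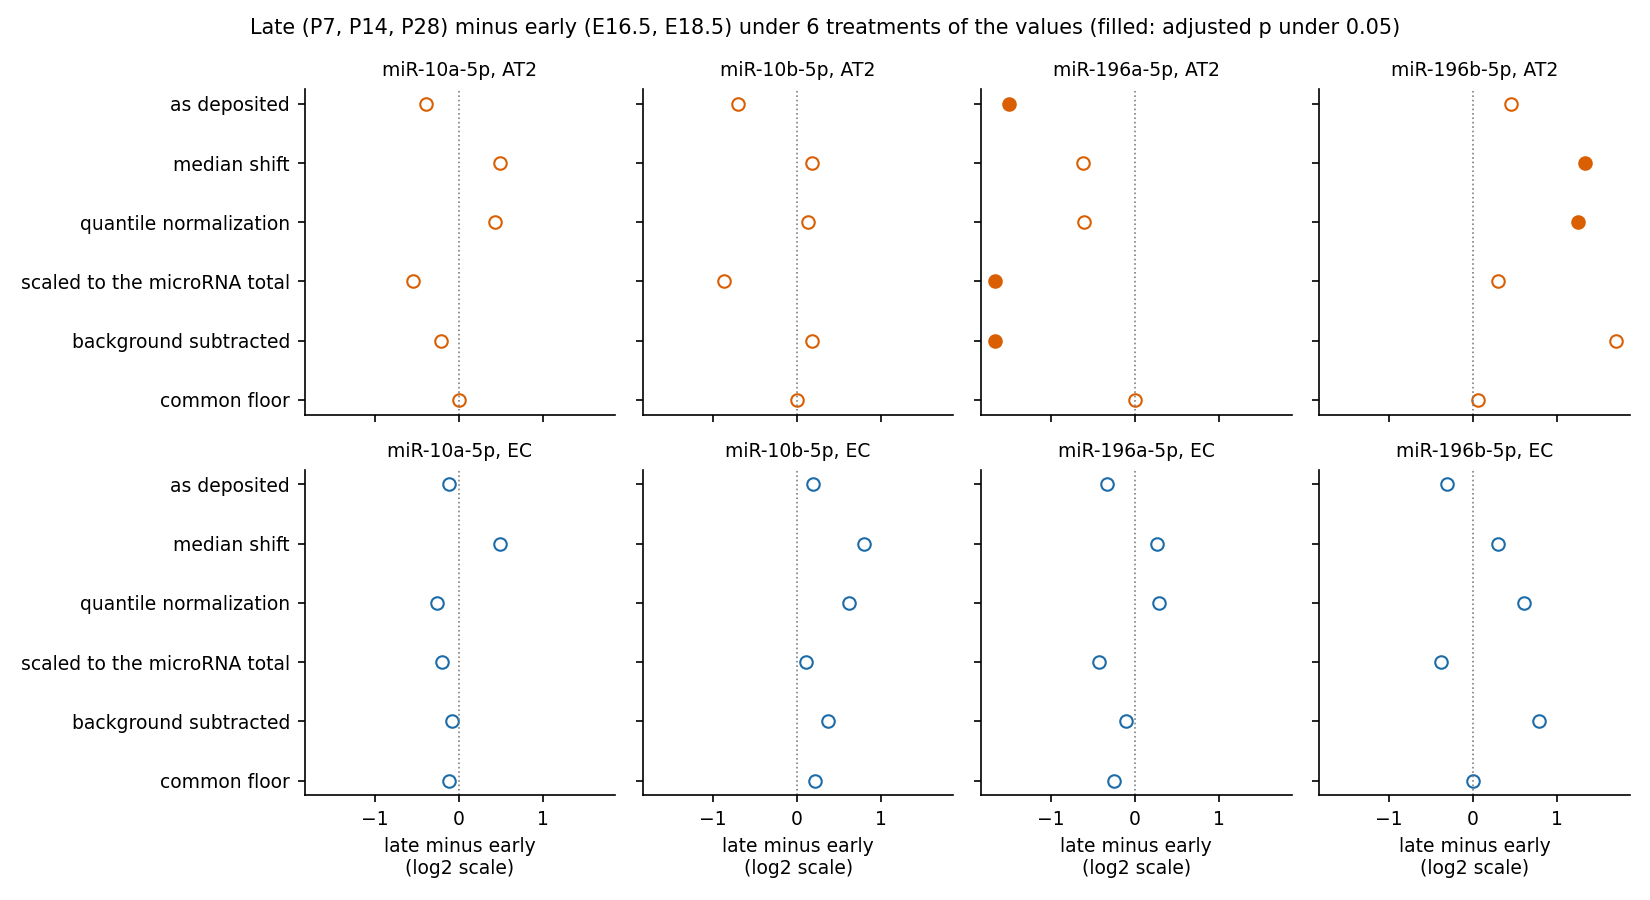
Late minus early on the log2 scale in AT2 (top) and EC (bottom) for the values as deposited and 5 other treatments of them, filled where the adjusted p was under 0.05. Median shift means a common median for all samples. In AT2 miR-196a-5p lies below 0 except at the common floor, where all its values are equal, and miR-196b-5p lies above 0; in EC no point is filled.

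Across the 6 stages the moderated F-test passed for miR-10a-5p (limma, adjusted p = 0.0487) and miR-196a-5p (limma, adjusted p = 0.0428) in AT2, where 49.0% of tested microRNAs passed. Both stood close to the threshold: leaving out 1 sample at a time kept the call in 8 of 23 fits for miR-10a-5p and 9 of 23 for miR-196a-5p. The adjusted p was 0.102 for miR-10b-5p and 0.0567 for miR-196b-5p (limma). That of miR-10b-5p was taken on signals all at background and says nothing of its stages. miR-196b-5p passed with the common median (0.00693), with quantile normalization (0.0221), and without AT2 P28 replicate 2 (0.0121) or AT2 P14 replicate 2 (0.0197). Of 10 alternatives, 5 ended the call of miR-10a-5p and 6 that of miR-196a-5p. Among them, the common floor made all AT2 values of both equal, so it could not keep either call. Sorted by size, the AT2 stage means of miR-10a-5p began with 14.2 (P1), and the others lay between 33.8 (P14) and 57.6 (E18.5). P1 was separated from P14, the next by size, by more than either SD (7.75 at P1 and 13.9 at P14, n = 2 each). In EC 0 of 4 passed (limma, adjusted p from 0.422 to 0.916, and 0 at an unadjusted p under 0.05), where 27.2% of tested microRNAs passed. By stage mean, miR-10a-5p in EC ran from 318 at P1 through 479 at P14, 505 at P7, 523 at E18.5 and 622 at E16.5 to 767 at P28. Neighbours in that order lay closer than the larger of their SDs (365 at P14, 114 at P7 and 334 at P28, n = 2 each), except E18.5 (n = 1) and E16.5 (SD 39.9, n = 2). The EC stage means of miR-10b-5p lay between 103 (P14, from 119.42 and 86.9) and 231 (P7, SD 39.9, n = 2), and those of miR-196a-5p lay between 64.6 (P1, n = 1) and 191 (E16.5, SD 144, n = 2, from 293.1 and 88.8).

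Of 40 tests between adjacent stages, 5 per cell type and member, 1 passed. Over all tested microRNAs the AT2 contrasts passed for 0.662%, 8.61%, 0.662%, 0% and 1.99% in the order of the stages. The EC contrasts passed for 0%, 1.32%, 0.331%, 0% and 2.65%. miR-10a-5p in AT2 was 19.7 and 8.74 at P1, against 55.7 and 59.47 at E18.5, a difference of -2.04 ± 0.58 on the log2 scale (SE, limma, adjusted p = 0.0349). The value of 59.47 was close to its limit, with 24 counts against 23.1. The low control rows of that sample averaged 26.6 scaled units, against 3.62 and 2.53 in the P1 samples. In that contrast 8.61% of tested microRNAs passed, with 5.96% as lower. The step back up, 56.77 and 51.81 at P7 against the P1 values, was 1.96 (limma, adjusted p = 0.0793). It passed with the common median (2.21, limma, adjusted p = 0.0442). It also passed, at the same 1.96, without EC P14 replicate 2 alone and with the 3 EC samples left out together. The P1 call was lost under 5 of 10 alternatives, among them the common median (-1.40, limma, adjusted p = 0.106), and without AT2 E18.5 replicate 1, AT2 E18.5 replicate 2 or AT2 P1 replicate 2, for which the adjusted p was 0.0794, 0.205 and 0.290 (limma). MIMAT0000138, the highest microRNA of EC, moved alongside in AT2: 1575 and 1282 at P1, against 4514 and 4686 at E18.5, and 10208 and 9558 at P7. The part of this in the miR-10a-5p values was not tested.

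The level of miR-10a-5p in AT2 can be set beside that of MIMAT0000138 within the specimen IDs. miR-10a-5p in the AT2 sample was 5.19 to 12.2% of the EC sample of the same ID. MIMAT0000138 was 0.608 to 7.39%. With background left in the values, the percentage for miR-10a-5p was the larger one in all 9 IDs. In the P14 pair they were 10.9% and 0.695%, and in the P28 pair with AT2 replicate 3 they were 7.86% and 7.32%. The 2 percentages thus lay close together in some pairs and far apart in others. EC P14 replicate 2, the EC sample of the P14 pair, is the one that stood apart. It had the lowest EC values of miR-10a-5p (220.47), miR-10b-5p (86.9) and miR-196a-5p (38.62), and a MIMAT0000138 value of 48398 against 75076 to 196814 in the other 9. Without it and the 2 other EC samples named above, AT2 minus EC was -3.86 for miR-10a-5p, -4.12 for miR-10b-5p and -2.74 for miR-196a-5p. These are means over the stages other than P1, which then has no EC sample, and so not the same mean as over all stages.

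**Figure D5:**
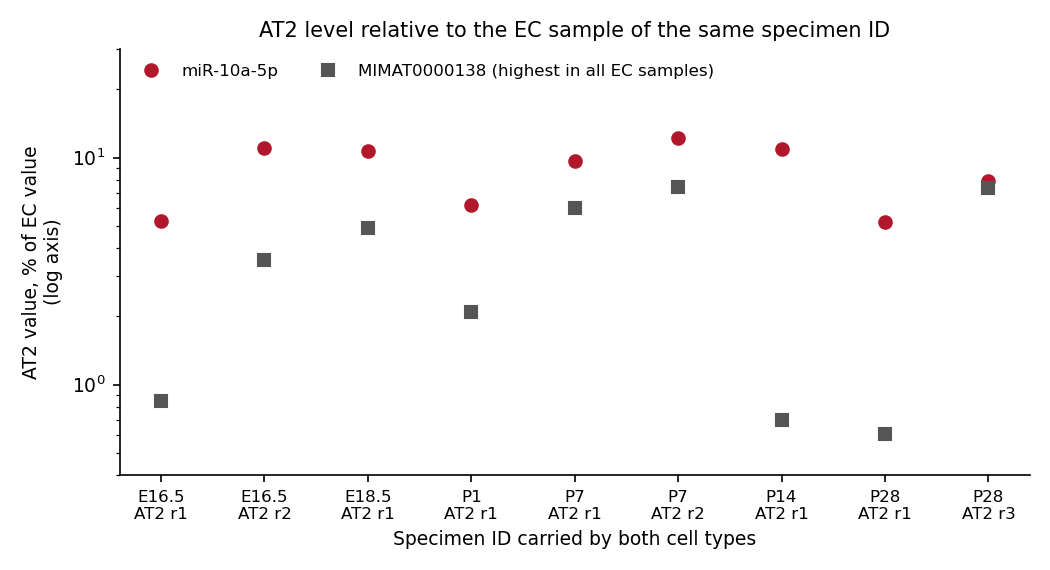
Value in the AT2 sample as a percentage of the EC sample with the same specimen ID (log axis), for miR-10a-5p (red circles) and MIMAT0000138, the highest microRNA of EC (grey squares). With background left in the values, miR-10a-5p lies between 5.19 and 12.2% and above MIMAT0000138 in all 9 IDs.

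The ratio of the members of a family within a sample does not depend on the factor by which that sample was scaled. In EC the value of miR-10a-5p was 1.77 to 6.17 times that of miR-10b-5p. The log2 ratio, after adding 1 to each value, was 1.80 ± 0.68 in late EC samples (SD, n = 6) and 2.16 ± 0.23 in early EC samples (SD, n = 3). The difference of -0.36 was within the spread (two-sided exact permutation test, p = 0.429, where the smallest p possible was 0.0238). The other ratios were not tested, because both members were above background in a minority of the samples to be compared: 0 of 11 late or early AT2 samples for miR-10, and 5 of 11 in AT2 and 1 of 9 in EC for miR-196. Of all 13 AT2 samples, 7 had both miR-196 members above background. In them miR-196a-5p was 1.73 times miR-196b-5p at E16.5 (replicate 1) and 1.40 times at E18.5 (replicate 1). It was 0.750 and 0.558 times at P1, 1.06 and 0.719 times at P7, and 0.579 times at P14 (replicate 2). In the 2 EC samples with both above background it was 2.49 times (P1) and 3.27 times (P28 replicate 2).

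The members were finally set against all other tested microRNAs by their pattern over the 23 samples (Pearson r of log2 values, 301 microRNAs compared). These r describe mainly the gap between the cell types, and all rows share each sample's scaling. The patterns closest to miR-10a-5p were those of MIMAT0000160 (r = 0.98), MIMAT0009413 (r = 0.96) and MIMAT0000158 (r = 0.96). For miR-10b-5p they were MIMAT0000656 (r = 0.94), MIMAT0000160 (r = 0.93) and miR-10a-5p itself (r = 0.93). For miR-196a-5p they were MIMAT0009458 (r = 0.91), MIMAT0000656 (r = 0.90) and again miR-10a-5p (r = 0.89). miR-196b-5p was far from the other members, with r = 0.10 to miR-10a-5p, 0.11 to miR-10b-5p and 0.0018 to miR-196a-5p. Its closest patterns were MIMAT0000664 (r = 0.69), MIMAT0000383 (r = 0.64) and MIMAT0000523 (r = 0.63).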

How the data were processed

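The deposited table holds 626 rows in 23 columns, of which 602 are mature microRNA probes. Per the labels' protocols, total RNA was prepared with the nCounter mouse miRNA kit and read on the mouse panel. The submitters' processing notes name the build mm10; how counts were normalized or background was handled is not given in the sources used here. Scaled nCounter signal was deposited: within each column values are whole multiples of 1 step (0.296 to 7.93), which was read from the values (13861 of 13861 whole within 0.1, leaving out values set to 1). Counts recovered in this way are inferred; they set depth, shares and the background filter, and the tests used the scaled values. Values that would fall below 1 appear as 1 in 9 columns. Of 14 ERCC rows, the 8 low ones served as negative controls.

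The test was limma 3.58.1 (R 4.3.3, intensity trend) on log2(value + 1), with 1 mean for each of 12 groups of cell type and stage over all 23 samples. Two-sided p-values were adjusted by Benjamini-Hochberg over the 302 tested microRNAs. Folds on this scale understate changes of low microRNAs. The procedure was tried on simulated counts without a separate background signal, so that trial does not cover microRNAs at background. Separate animals are not stated in the labels for the samples of a group, and the p-values reflect the spread among these samples alone, which may be technical. Replicate numbers follow accession order. Specimen IDs, carried in the titles, pair 9 AT2 and EC samples; over the 7 pairs in groups of more than 1 sample, deviations from the group means correlated at r = -0.02 to 0.31.

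The members and lists were chosen with earlier results of these data known. Named microRNAs are the 4 members and, for each, the 3 with the highest Pearson r. Alternatives changed the pseudocount (10), filter, scaling, background, trend, specimen block and left-out samples.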

Additional observations from a re-analysis of the deposited data

How the results depend on the processing

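AT2 minus EC kept its direction and call for miR-10a-5p (-3.99 to -2.37) and miR-10b-5p (-5.56 to -0.65) under all 10 alternatives run and all 23 omissions of 1 sample. For miR-196a-5p it did so under 9 of 10 and all 23; at the common floor it was -0.21 (limma, adjusted p = 0.413). The specimen ID as a replicate block (consensus correlation 0.23) changed the call of miR-196a-5p at P1 (-2.14, limma, adjusted p = 0.0330). Leaving out 1 sample never ended the late minus early call of miR-196a-5p in AT2. It was -0.62 with the common median, -0.60 with quantile normalization and 0 at the common floor, where all its AT2 values are equal. For miR-196b-5p it passed with 1.34 (common median) and 1.25 (quantile).

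The other values that changed sign did not pass in either case. Late minus early in AT2 was 0.50 (common median) and 0.43 (quantile) for miR-10a-5p, and 0.18 (common median), 0.13 (quantile) and 0.18 (background subtracted) for miR-10b-5p. For miR-10b-5p, whose AT2 values were all at background, it was -1.06 to -0.34 with 1 sample left out, and it passed at -1.06 without AT2 E18.5 replicate 1 (limma, adjusted p = 0.0195). Late minus early in EC was 0.49 (common median), 0.33 (3 EC samples left out) and -0.40 to 0.18 (1 left out) for miR-10a-5p. It was 0.27, 0.28 (quantile) and -0.85 to 0.089 (1 left out) for miR-196a-5p, and 0.30, 0.61 (quantile) and 0.78 (background subtracted) for miR-196b-5p. The difference of these changes was 0.0034 (common median), 0.68 (quantile), 0.11 (common floor) and -0.57 to 0.014 (1 left out) for miR-10a-5p, and 0.25 (common floor) for miR-196a-5p. AT2 minus EC of miR-196b-5p was 0.16 (common median), 0.43 (quantile), 0.57 (microRNA total), 1.01 (background subtracted) and 0.027 (common floor). By stage it was 0.12 (E16.5, total), 0.56, 0.47 and 1.41 (E18.5, quantile, total and background subtracted), 0.093 (P1, quantile), 0.036 and 0.53 (P7, quantile and total) and -0.35 to 1.33 (P14, 1 left out). The causes were not tested.

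Over all microRNAs, AT2 minus EC gave 203 calls (59 higher), against 467 with no filter and 110 at the common floor. With the common median, quantile normalization, the microRNA total, background subtraction and the floor 46.3, 49.7, 72.7, 56.0 and 43.6% of calls were higher. Late minus early in AT2 gave 155 calls (34 higher), against 86 at the floor, and 61.6, 48.8, 15.0, 33.3 and 33.7% were higher in the same order. In EC it called 37.1% of the 302 (28 microRNAs higher), against 192 with no filter, 58 with the total and 72 at the floor, with 69.3, 51.6, 20.7, 39.8 and 31.9% higher; it was 69 without EC E18.5 replicate 1 and 66 without EC E16.5 replicate 2. The difference gave 19, against 5 (total), 47 (floor) and 31 (3 EC samples left out). It gave 9 to 12 without AT2 E16.5 replicate 1 or 2, AT2 E18.5 replicate 1 or 2, AT2 P7 replicate 1 or EC E16.5 replicate 1. The F-test gave 148 in AT2, against 85 at the floor, and 82 in EC, against 189 with no filter, 38 with the total and 51 without EC E16.5 replicate 2.

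The planned count tests on recovered counts were not run, because the scaled values are treated here as a signal. The ratio of family members was tested only in EC for miR-10; elsewhere a minority of samples had both above background. Without the single EC sample of E18.5 or P1, that stage's contrasts have no value. The background limits bound miR-10b-5p in AT2, miR-196a-5p in late AT2 and miR-196b-5p in EC, which were mostly not above them. Of these, miR-10b-5p was just below its limit (16 counts, limit 16.2) in the AT2 sample with the most counts (559365).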
